A study of Mus musculus with 6 samples.

Results

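The cell cycle and mitosis genes are 53 genes of the division machinery, chosen by name, with earlier results of these data known. All 53 were found among the 23057 gene symbols of the deposited table. They comprise 10 genes of G1 and of entry into S phase, 15 of S phase, 26 of mitosis and 2 of the nucleus (Lmnb1 and Hmgb2). Brains of C57BL/6 mice were sampled, either mock-irradiated or given 10 Gy of X-rays to the head through a collimator, and collected 30 days later after perfusion with PBS. Each group held 3 mice with 1 library per mouse, and the sources used here give neither age nor sex. RNA came from dissected brains that the labels call whole, and no other treatment or allele is named.

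A cell divides by passing through G1, copying its DNA in S phase, and separating the copies in mitosis. D-type cyclins with Cdk4 and Cdk6, and then E-type cyclins with Cdk2, release E2F transcription factors, which switch on the genes that replicate DNA. Cyclin B with Cdk1 then drives mitosis, whose genes are switched on later by B-Myb and FoxM1. Most cells of the adult brain no longer divide. The dividing ones are mainly oligodendrocyte precursors, progenitors of the hippocampus and of the ventricle wall, and some microglia and endothelial cells, and ionizing radiation is known to deplete dividing progenitors.

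Before any comparison, the libraries have to be placed. Levels are in FPKM, which divides the reads of a gene by the length of its transcript and by the mapped total of the library, and summed to between 472450 and 625782 per library. Neuron, astrocyte and oligodendrocyte markers were present in each library, Snap25 at 1094 FPKM or more and Mbp at 1711 FPKM or more. Regional markers separated the groups. All 10 cerebellum markers were lower after irradiation, with a summed level of 1206 to 1761 FPKM in the mock brains and 80.9 to 246.7 FPKM after irradiation, and Gabra6 was listed at 0 in irradiated 2. The 8 telencephalon markers summed to 46.8, 9.16 and 45.9 FPKM in mock 1, 2 and 3 and to 94.3, 116.8 and 190.8 FPKM in irradiated 1, 2 and 3. Mock 2 thus stood apart from the other mock libraries. The irradiated libraries were not uniform either. Irradiated 1 had the lowest telencephalon sum among them and the highest cerebellum sum, at 246.7 FPKM against 114.2 and 80.9 FPKM in irradiated 2 and 3. Regional makeup and irradiation cannot be told apart in these groups, and fewer cells of a type cannot be told apart from less RNA per cell.

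Of the 3 groups by cycle phase, the mitotic genes had the lowest levels. The median over the members of a group, of each gene's mean over 6 libraries, was 3.82 FPKM for the G1 genes, 2.33 FPKM for the S-phase genes and 0.52 FPKM for the mitotic genes. A mean of at least 0.5 FPKM was required for the main test. It was reached by 8 of 10 G1 genes, 13 of 15 S-phase genes, 13 of 26 mitotic genes and both nuclear genes, 36 in all, leaving 17 of 53 below it, where 36.7% of all genes in the table fell short. Pcna, the sliding clamp that holds DNA polymerase on its template and also serves DNA repair, had the highest mean (47.1 FPKM). Bub1, a kinase of the spindle checkpoint, had the lowest (0.052 FPKM). FPKM are divided by transcript length, which allows levels of different genes to be set side by side. That division does not allow for exons shared with a gene on the opposite strand, as in 20 of the 53 members. The part of such overlaps in these levels was not tested.

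**Figure D1:**
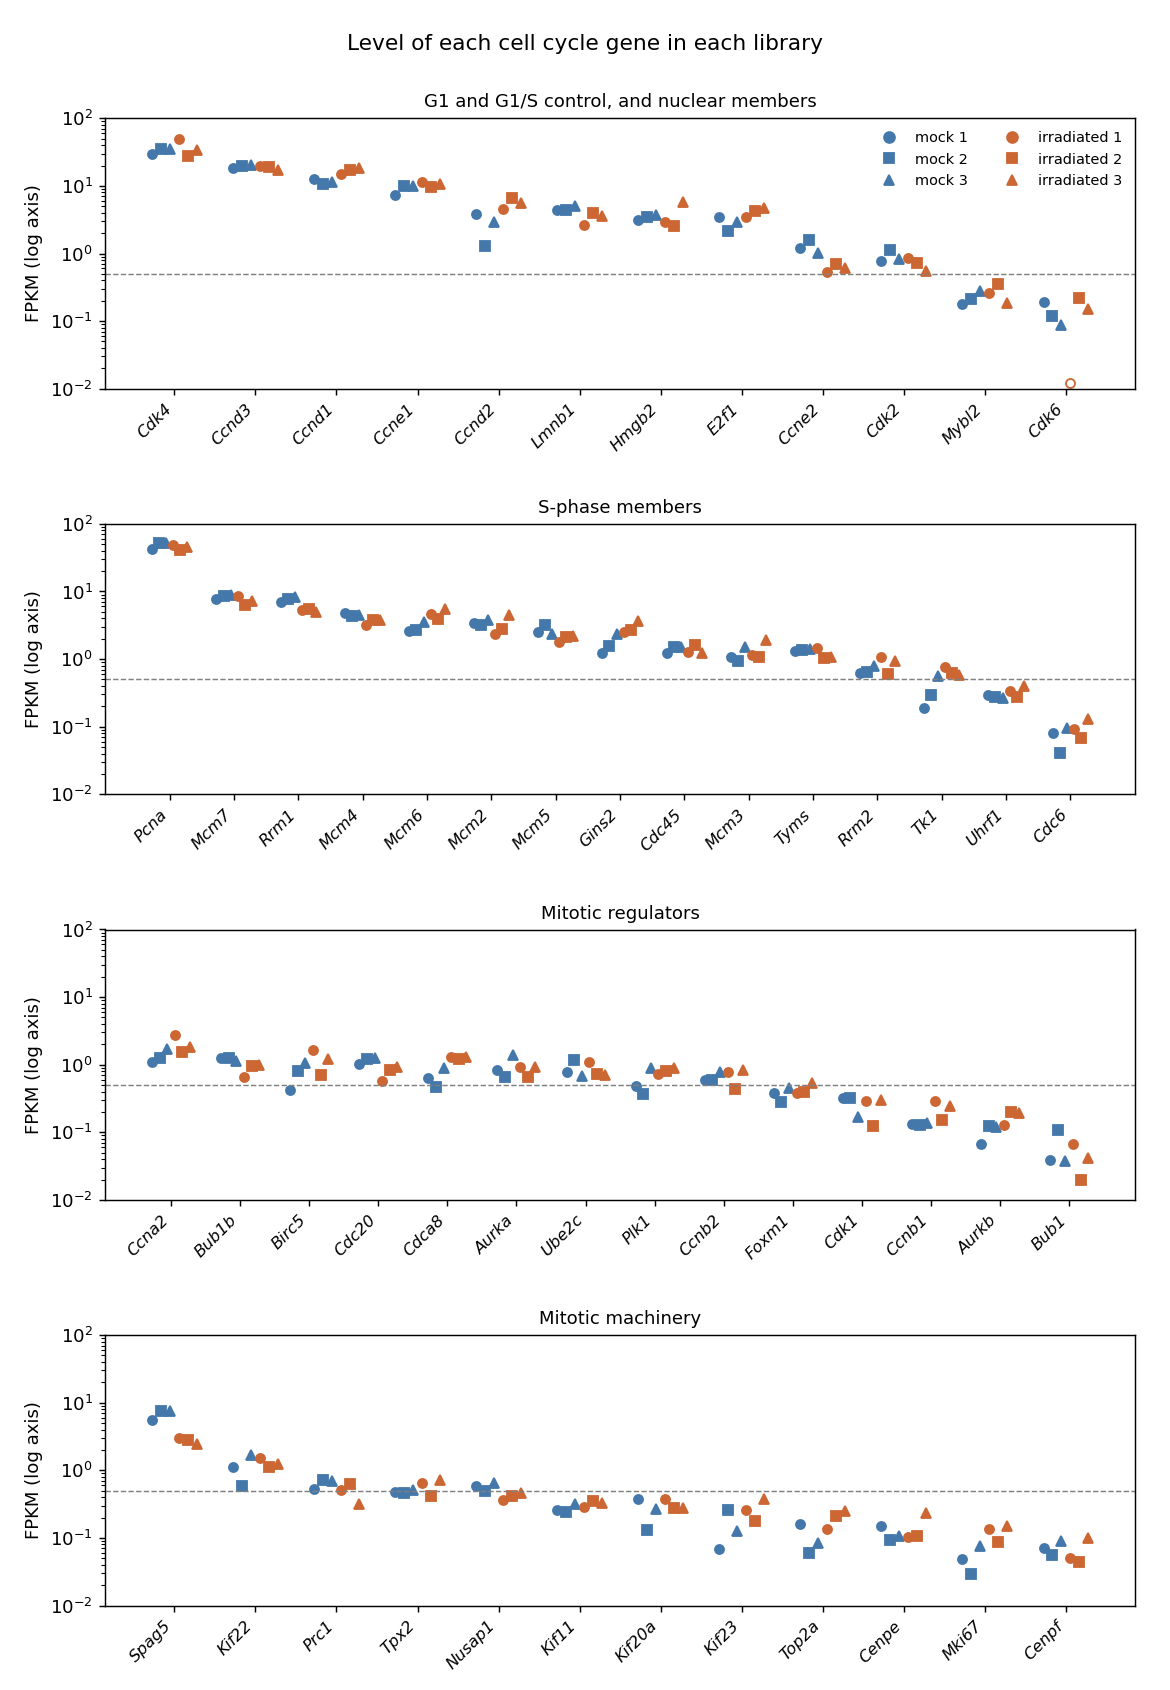
Level of each of the 53 genes in each library, in FPKM on a log axis, with mock libraries in blue and irradiated ones in orange. The dashed line marks the mean of 0.5 FPKM required for the main test, and the open circle marks Cdk6 in irradiated 1, listed at 0. Pcna and Cdk4 lie near the top at about 28 to 52 FPKM, and most of the mitotic machinery lies below the dashed line.

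S-phase and mitotic genes also differ in their promoters, which are shown here because the comparison below sets these groups against each other. RefSeq promoters of GRCm38.p6, from 250 bases before to 50 after the start of transcription, were at hand for 42 of the 53 genes. They were searched on both strands for an E2F site (TTTCCCGC, TTTCGCGC, TTTGCCGC or TTTGGCGC), for a cell cycle homology region or CHR (TTTGAA or TTCGAA), the element bound by the complexes that time mitotic genes, and for a CCAAT box. An E2F site lay in 6 of 13 S-phase promoters (46.2%), in 1 of 21 mitotic ones (4.76%, Cdk1) and in 2.6% of the promoters of all 27025 genes. A CHR lay in 17 of 21 mitotic promoters (81.0%), in 3 of 13 S-phase ones (23.1%) and in 21.7% of all. CCAAT was found in 19 of 21 mitotic (90.5%), 10 of 13 S-phase (76.9%) and 41.1% of all promoters. These matches describe letters, not binding.

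The 4 promoters printed belong to a pair of mitotic genes, Spag5 and Cdca8, and a pair of S-phase genes, Mcm6 and Mcm5, whose values after irradiation lay on opposite sides of mock. Each runs 5′ to 3′ from 250 bases before the start to base 30 of the transcript, and capitals mark every match to any of the 3 motifs.
Spag5, chr11:78301341-78301620, plus strand: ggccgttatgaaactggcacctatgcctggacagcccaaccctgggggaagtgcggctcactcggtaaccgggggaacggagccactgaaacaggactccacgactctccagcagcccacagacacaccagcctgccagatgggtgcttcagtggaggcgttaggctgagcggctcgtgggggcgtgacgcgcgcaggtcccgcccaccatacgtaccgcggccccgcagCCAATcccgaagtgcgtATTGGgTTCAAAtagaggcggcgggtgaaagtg
Cdca8, chr4:124936888-124937167, minus strand: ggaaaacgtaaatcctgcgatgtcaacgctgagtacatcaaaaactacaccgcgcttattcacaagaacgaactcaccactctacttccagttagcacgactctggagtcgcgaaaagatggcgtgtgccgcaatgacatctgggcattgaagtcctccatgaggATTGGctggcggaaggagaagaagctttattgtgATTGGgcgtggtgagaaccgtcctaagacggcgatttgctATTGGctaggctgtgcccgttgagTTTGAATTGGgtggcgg
Mcm6, chr1:128359676-128359955, minus strand: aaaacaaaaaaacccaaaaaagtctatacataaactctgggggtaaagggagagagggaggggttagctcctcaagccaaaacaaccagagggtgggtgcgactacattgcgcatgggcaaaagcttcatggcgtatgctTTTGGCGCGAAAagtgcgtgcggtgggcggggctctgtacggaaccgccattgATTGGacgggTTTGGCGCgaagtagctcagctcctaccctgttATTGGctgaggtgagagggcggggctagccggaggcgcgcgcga
Mcm5, chr8:75109259-75109538, plus strand: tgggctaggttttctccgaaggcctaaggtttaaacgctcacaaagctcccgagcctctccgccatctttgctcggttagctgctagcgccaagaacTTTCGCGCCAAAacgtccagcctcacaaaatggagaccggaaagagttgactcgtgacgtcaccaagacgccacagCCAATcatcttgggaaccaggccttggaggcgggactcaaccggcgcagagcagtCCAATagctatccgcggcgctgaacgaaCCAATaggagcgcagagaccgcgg
In Spag5 the CHR reads on the reverse strand and begins at base 4 of the transcript, with a CCAAT box on either strand just before it. In Cdca8 it begins at base 14 and shares a base with the CCAAT box that follows. Mcm6 holds 3 E2F matches, at -110, -106 and -47 from the start, the first of which overlaps the next. Mcm5 holds 2 that overlap, at -153 and -149. The start used for Spag5 lies inside the span annotated for the gene. Since the pairs were picked for values on opposite sides of mock, the signs of their changes are no finding, and of these 4 genes Spag5 alone passed the test described next.

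Of the 36 genes tested, 1 fell and 0 rose (limma on log2(FPKM + 0.5), Benjamini-Hochberg adjusted p under 0.05). Among all 14585 genes tested, 7.72% were called, 4.24% lower and 3.48% higher. With no filter on level, 1 of the 53 members was called, against 4.4% of 19679 genes, and 11 had an unadjusted p under 0.05, against 22.1%. At an unadjusted p under 0.05 there were 6 higher and 3 lower members, 9 of 36, where 25.6% of all tested genes reached that level. The libraries of the groups did not overlap for 15 of the 36, with 7 above mock and 8 below, against 31.5% of all tested genes. Fitted log2 changes were positive for 18 and negative for 18, with a median of -0.0029, beside -0.018 over all tested genes. The members' share of calls was below the background, their share at the unadjusted level close to it and their share without overlap above it, and these gaps were not tested. Fold changes on this scale understate the change of low genes, and an exact permutation of 3 against 3 mice cannot give a p under 0.1. The p-values come from limma for that reason.

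**Figure D2:**
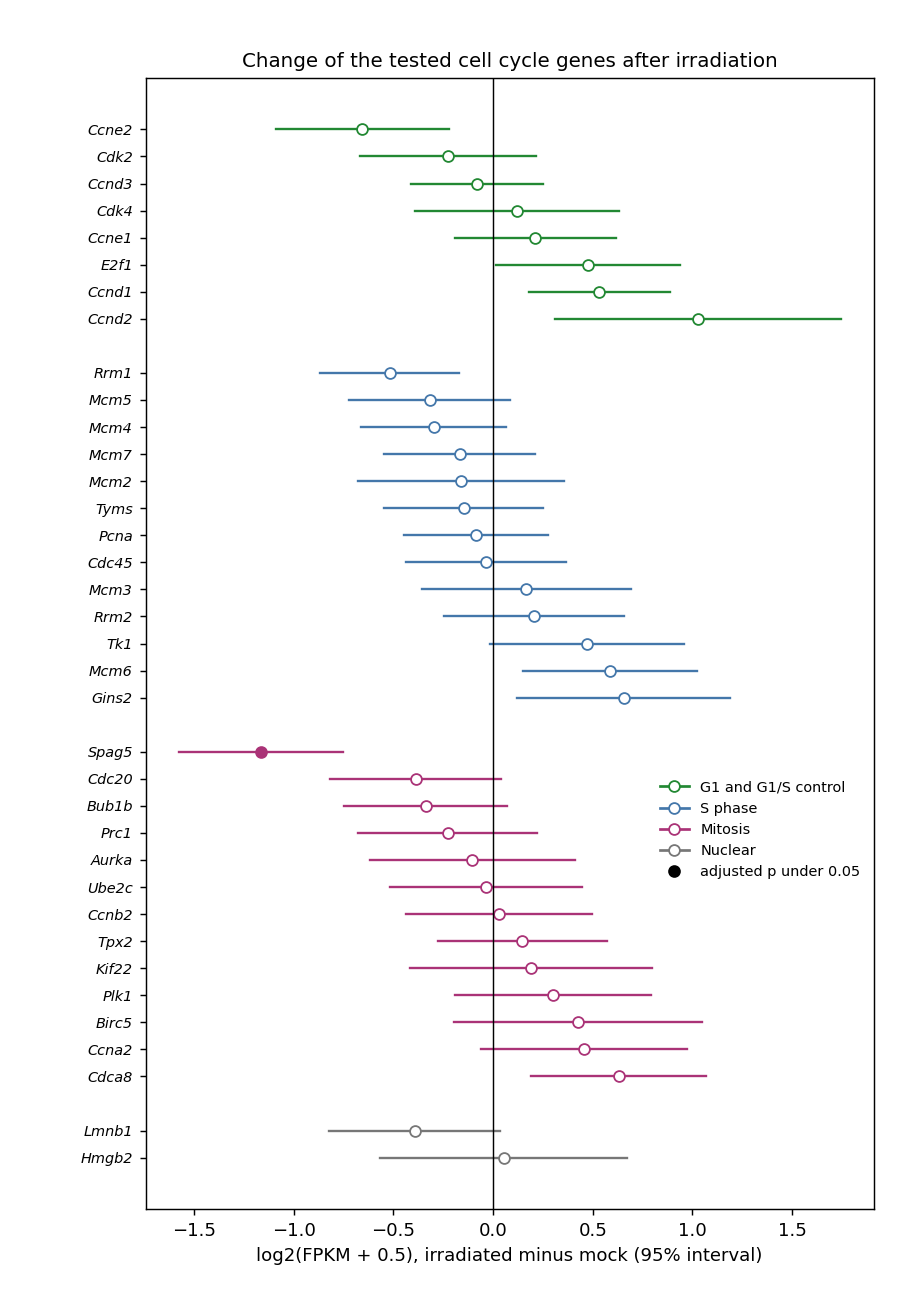
Difference between irradiated and mock libraries in log2(FPKM + 0.5) for the 36 tested genes, with 95% intervals from limma, grouped by role. Spag5, at -1.17, is the filled point and the gene with an adjusted p under 0.05, and points of each group lie on both sides of 0.

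The gene that fell was Spag5, which encodes astrin, a protein of the mitotic spindle and kinetochore (chromosome 11, 78301470 to 78322457, GRCm38.p6). It was at 5.53, 7.52 and 7.49 FPKM in mock libraries 1 to 3 and at 3.03, 2.76 and 2.47 FPKM in irradiated libraries 1 to 3. Every irradiated library lay below the lowest mock library, mock 1. The log2 change was -1.17 (SE 0.18, 95% interval -1.58 to -0.75, limma adjusted p = 0.0075). Spag5 was also the highest of the 12 genes of the mitotic machinery by its mean (4.80 FPKM), where the others ranged from 0.068 FPKM for Cenpf to 1.21 FPKM for Kif22. No exon of another gene overlaps it in GENCODE M21. It was called in all 15 alternative settings, with log2 changes of -1.30 to -1.05. The cerebellum markers were lower in the same libraries, with a median log2 change of -3.69. Their part in the Spag5 difference was not tested.

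The other genes of the spindle and the chromosomes were lower in level and gave no call. Kif22, a chromosome-arm motor, was at 1.12, 0.58 and 1.70 FPKM in the mock brains and 1.51, 1.11 and 1.25 FPKM after irradiation. Prc1, which bundles microtubules of the midzone, had a log2 change of -0.23 (SE 0.20), and Tpx2, which activates Aurora A on the spindle, one of 0.15 (SE 0.19). The libraries of the groups overlapped for each of these 3 genes. The remaining 8 genes of the machinery had means under 0.5 FPKM and were fitted without a filter. They were Kif11, Kif20a and Kif23 (motors of spindle assembly and cytokinesis), Nusap1, Cenpe, Cenpf, Top2a and Mki67.

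The classical proliferation markers were near the floor of the table. Mki67, which coats mitotic chromosomes and is the standard marker of dividing cells, ranged from 0.029 to 0.076 FPKM in the mock brains and from 0.088 to 0.15 FPKM after irradiation. The groups did not overlap, and irradiated 2 lay closest to mock. Top2a, the topoisomerase that untangles chromosomes, ranged from 0.060 to 0.16 FPKM in the mock brains and from 0.14 to 0.25 FPKM after irradiation, and the groups overlapped. Nusap1, a spindle microtubule protein with a mean of 0.497 FPKM, just under the filter, was at 0.59, 0.50 and 0.65 FPKM in the mock brains and lower at 0.36, 0.42 and 0.45 FPKM after irradiation. Across all 17 members below the filter, 12 had positive and 5 negative fitted log2 changes, and none was called (smallest limma adjusted p = 0.17, for Mki67). Mki67 alone among them had an unadjusted p under 0.05 (0.030), where 13.7% of the 5094 genes below the filter with a value above 0 did. The groups did not overlap for 16.0% of those 5094 genes, and the signs of their changes were not counted.

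Regulators of mitosis had fitted log2 changes of both signs, 5 positive and 4 negative among the 9 tested, and none passed. Cdca8, which encodes borealin of the chromosomal passenger complex, was at 0.63, 0.46 and 0.88 FPKM in the mock brains and 1.31, 1.21 and 1.29 FPKM after irradiation. The groups did not overlap, and the irradiated libraries lay close together. Its log2 change was 0.63 (SE 0.19, limma adjusted p = 0.083), and it passed with quantile normalization (0.73, adjusted p = 0.046). Its exons share 232 bases with 9930104L06Rik on the opposite strand, whose log2 change was -0.14 (adjusted p = 0.67). Birc5 (survivin), another subunit of that complex, was at 0.43, 0.80 and 1.04 FPKM in the mock brains and 1.65, 0.71 and 1.23 FPKM after irradiation, so the groups overlapped. The complex's kinase Aurkb was at 0.066 to 0.12 FPKM in the mock brains and 0.13 to 0.20 FPKM after irradiation.

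No member that serves the spindle checkpoint or the anaphase-promoting complex passed the test. Cdc20, an activator of that complex, was at 1.01, 1.23 and 1.25 FPKM in the mock brains and 0.57, 0.84 and 0.93 FPKM after irradiation (log2 change -0.39, SE 0.19, limma adjusted p = 0.24). Bub1b, a checkpoint protein that restrains Cdc20, was at 1.28, 1.27 and 1.14 FPKM in the mock brains and 0.67, 0.97 and 0.99 FPKM after irradiation (-0.34, SE 0.18, adjusted p = 0.28). Neither gene's groups overlapped. Exons of Cdc20 share 53 bases with Elovl1 on the opposite strand. The log2 change of Elovl1 was -0.69 (limma adjusted p = 0.085), and its part in the Cdc20 values was not tested. Bub1 was at 0.037 to 0.11 FPKM in the mock brains and 0.020 to 0.067 FPKM after irradiation, which overlapped. Ube2c, the ubiquitin-conjugating enzyme that works with the complex, had a log2 change of -0.035 (SE 0.21).

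Outside the checkpoint, the cyclins and kinases of mitosis overlapped between the groups, except Ccnb1 and Aurkb. Ccna2, cyclin A, which serves S phase and mitotic entry, had the highest mean of the 14 regulators (1.69 FPKM). It was at 1.08, 1.25 and 1.68 FPKM in the mock brains and 2.75, 1.56 and 1.84 FPKM after irradiation, highest in irradiated 1 (log2 change 0.46, SE 0.23, limma adjusted p = 0.24, and 0.27 without irradiated 1). Its exons share 510 bases with Exosc9 on the opposite strand, which was also highest in irradiated 1, at 23.8 FPKM against 14.1 to 19.6 FPKM in the others. Ccnb1, cyclin B1, was at 0.13, 0.13 and 0.14 FPKM in the mock brains and 0.30, 0.15 and 0.25 FPKM after irradiation. Ccnb2 had a log2 change of 0.030 (SE 0.20), and Cdk1, the partner of these cyclins, ranged from 0.13 to 0.33 FPKM over the 6 libraries. The mitotic kinases Plk1 (0.30, SE 0.22) and Aurka (-0.10, SE 0.23) had log2 changes whose 95% intervals held 0. Foxm1, the transcription factor of mitotic genes, was at 0.29 to 0.45 FPKM in the mock brains and 0.38 to 0.53 FPKM after irradiation.

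Among the S-phase genes, subunits of one machine had log2 changes of both signs. The Mcm2 to Mcm7 proteins form a ring of 6 subunits, the replicative helicase. Mcm6 was at 2.62, 2.72 and 3.55 FPKM in the mock brains and 4.65, 3.93 and 5.54 FPKM after irradiation, with no overlap (log2 change 0.59, SE 0.19, limma adjusted p = 0.098). Mcm4 was at 4.74, 4.28 and 4.50 FPKM in the mock brains and 3.15, 3.77 and 3.83 FPKM after irradiation, all below mock (-0.30, SE 0.16, adjusted p = 0.28). Mcm5 was at 2.49, 3.16 and 2.38 FPKM in the mock brains and 1.79, 2.15 and 2.18 FPKM after irradiation, again all below (-0.32, SE 0.18, adjusted p = 0.30). Mcm2, Mcm3 and Mcm7 overlapped between the groups, with log2 changes of -0.16, 0.17 and -0.17. None of the 6 subunits passed the test.

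Gins2 and Cdc45 belong to the same active helicase. Gins2 was at 1.24, 1.54 and 2.37 FPKM in the mock brains and 2.53, 2.66 and 3.66 FPKM after irradiation, which did not overlap, though mock 3 lay close to irradiated 1 (log2 change 0.65, SE 0.23, limma adjusted p = 0.12). Its exons share 2758 bases with Gse1 on the opposite strand, whose log2 change was 0.27 (adjusted p = 0.47). Cdc45 had one of -0.036 (SE 0.18, 95% interval -0.44 to 0.37). Cdc6, which loads the helicase on DNA, was below the filter at 0.041 to 0.13 FPKM over all libraries. Uhrf1, which helps to copy DNA methylation to the new strand, was at 0.27 to 0.29 FPKM in the mock brains and 0.27 to 0.40 FPKM after irradiation.

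None of the enzymes that supply nucleotides passed the test. Rrm1, the large subunit of ribonucleotide reductase (chromosome 7, 102441695 to 102469771), was at 7.09, 7.86 and 8.35 FPKM in the mock brains and 5.33, 5.50 and 4.95 FPKM after irradiation. The groups did not overlap, and the log2 change of -0.52 (SE 0.15, 95% interval -0.87 to -0.17) missed the threshold (limma adjusted p = 0.075). Rrm2, the small subunit that limits the enzyme in S phase, was at 0.63, 0.64 and 0.78 FPKM in the mock brains and 1.08, 0.60 and 0.95 FPKM after irradiation, which overlapped. Tk1, thymidine kinase, was at 0.19, 0.29 and 0.56 FPKM in the mock brains and 0.77, 0.62 and 0.58 FPKM after irradiation (log2 change 0.47, SE 0.21, adjusted p = 0.21). Mock 3 and irradiated 3 nearly met. Tyms, thymidylate synthase, had a log2 change of -0.15 (SE 0.17). Pcna, the highest S-phase gene, was at 42.2, 51.7 and 51.7 FPKM in the mock brains and 49.2, 41.5 and 46.1 FPKM after irradiation, which overlapped (-0.086, SE 0.16, 95% interval -0.45 to 0.28).

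The G1 genes had the highest median level of the groups by cycle phase. None of the 3 D-type cyclins passed the test, and differences among them were not tested. Ccnd1, cyclin D1 (chromosome 7, 144929931 to 144939831), was at 12.5, 10.6 and 11.4 FPKM in the mock brains and 15.0, 17.5 and 18.2 FPKM after irradiation. Ccnd2, cyclin D2, which neural progenitors use, was at 3.79, 1.29 and 2.94 FPKM in the mock brains and 4.59, 6.67 and 5.61 FPKM after irradiation. For both genes every irradiated library lay above every mock library. Ccnd3, cyclin D3, was at 18.5, 20.02 and 20.3 FPKM in the mock brains and 19.8, 18.9 and 16.9 FPKM after irradiation, which overlapped. The log2 changes were 0.53 (SE 0.15, limma adjusted p = 0.073) for Ccnd1, 1.03 (SE 0.31, adjusted p = 0.084) for Ccnd2 and -0.081 (SE 0.15, 95% interval -0.41 to 0.25) for Ccnd3.

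The first pair of D-type cyclins lay near the threshold. Ccnd1 passed with each library centred on its median (0.57, limma adjusted p = 0.047) and Ccnd2 with quantile normalization (1.14, adjusted p = 0.045). Without mock 2 the log2 change of Ccnd2 was 0.66. Mock 2 had the lowest Ccnd2 and Ccnd1 and also the lowest telencephalon markers, with library medians of -0.24, -2.19 and -0.24 for mock 1 to 3 and 0.55, 0.85 and 1.49 for irradiated 1 to 3 on the centred log2 scale. Of those 8 markers 4 rose and 0 fell, and their part in the cyclin values was not tested. Exons of Ccnd1 share 1100 bases with LTO1 on the opposite strand, and those of Ccnd2 share 368 bases with the antisense gene 9330179D12Rik, whose log2 change was 0.56 (adjusted p = 0.14). The kit marks strand, but the counting is not stated to use it. Exons of 20 of the 53 members overlap a gene on the opposite strand.

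No other G1 gene passed the test. Ccne2, cyclin E2, was at 1.21, 1.58 and 1.03 FPKM in the mock brains and 0.53, 0.71 and 0.62 FPKM after irradiation, all below mock (log2 change -0.66, SE 0.19, limma adjusted p = 0.072). Its exons share 609 bases with Ints8 on the opposite strand, whose log2 change was -0.091 (adjusted p = 0.79). Ccne1, cyclin E1, was at 7.28, 9.80 and 10.1 FPKM in the mock brains and 11.4, 9.48 and 10.5 FPKM after irradiation, and the groups overlapped (0.21, SE 0.18, adjusted p = 0.48). E2f1, the transcription factor of S-phase genes, was at 3.46, 2.16 and 2.97 FPKM in the mock brains and 3.52, 4.24 and 4.66 FPKM after irradiation. Mock 1 and irradiated 1 nearly met, and mock 2 was lowest (0.48, SE 0.20, adjusted p = 0.18, and 0.32 without mock 2).

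The kinases of G1 overlapped between the groups. Cdk4 had the highest mean of the G1 genes (35.4 FPKM), with 29.5, 35.6 and 35.0 FPKM in the mock brains and 50.1, 27.7 and 34.1 FPKM after irradiation. Irradiated 1 was the highest and irradiated 2 the lowest library, and the log2 change was 0.12 (SE 0.22, 95% interval -0.39 to 0.63). Its exons share 641 bases with Tspan31 on the opposite strand, which was at 51.6 FPKM in irradiated 1 and at 34.9 to 36.7 FPKM in the other libraries. The part of these overlaps in the values of Cdk4 and Ccna2 was not tested. Cdk6, which shares the D-type cyclins with Cdk4, stayed at or below 0.22 FPKM and was listed at 0 in irradiated 1. Cdk2 had a log2 change of -0.23 (SE 0.19). Mybl2, which encodes B-Myb, was at 0.18 to 0.28 FPKM in the mock brains and 0.19 to 0.35 FPKM after irradiation.

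**Figure D3:**
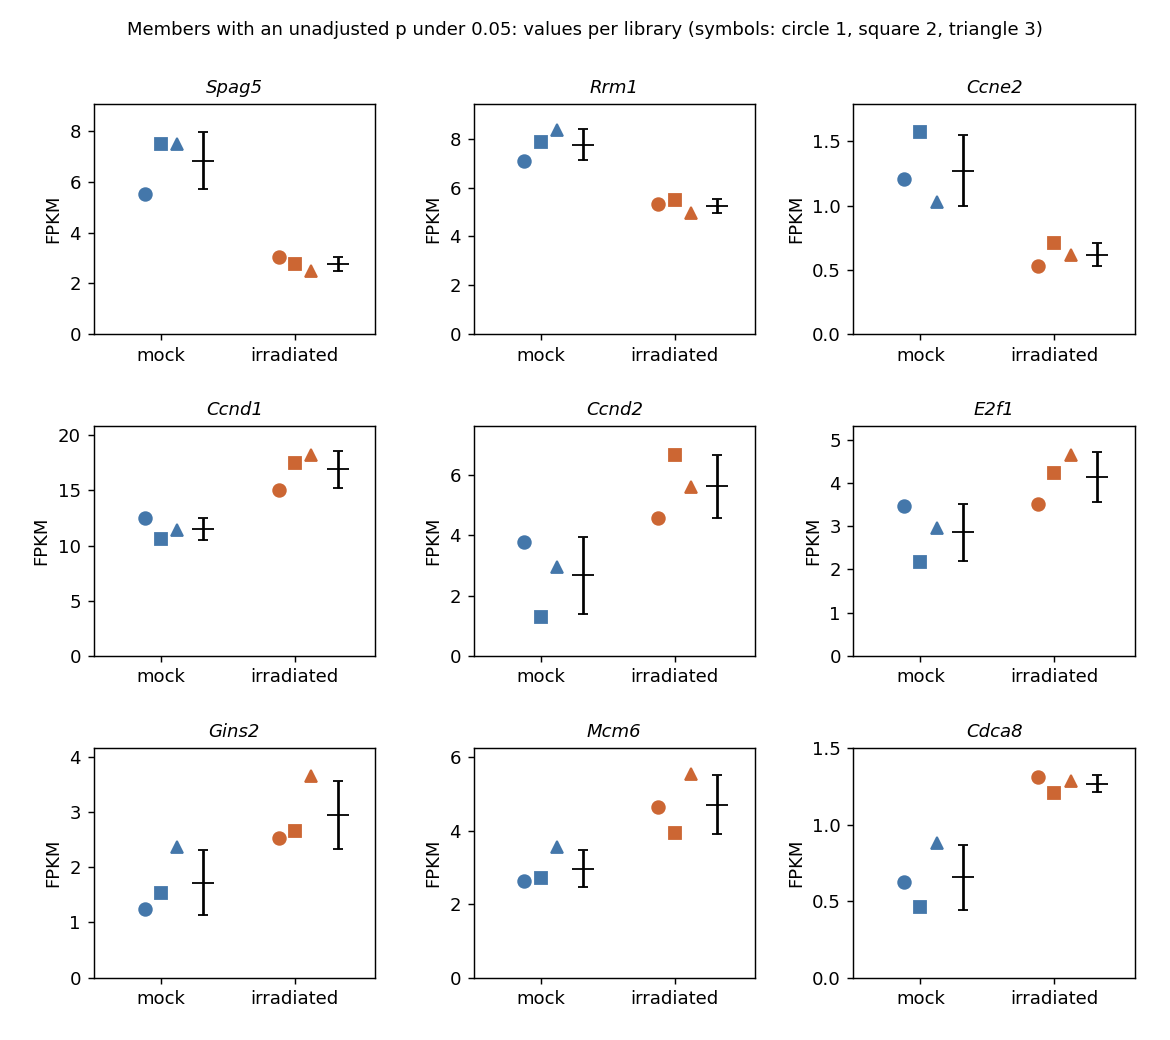
FPKM in each library of the 9 genes with an unadjusted p under 0.05, with mean and SD (n = 3) as black bars beside the points. Irradiated libraries lie below mock for Spag5, Rrm1 and Ccne2 and above mock for the other 6, and the closest approach is E2f1, where mock 1 is at 3.46 and irradiated 1 at 3.52 FPKM.

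Both nuclear genes are best known outside mitosis itself. Lmnb1, lamin B1 of the nuclear lamina, whose loss is used as a mark of senescent cells, was at 4.34, 4.47 and 4.96 FPKM in the mock brains and 2.62, 4.04 and 3.61 FPKM after irradiation. All irradiated libraries lay below mock, irradiated 1 furthest (log2 change -0.39, SE 0.19, 95% interval -0.82 to 0.037, limma adjusted p = 0.23). Without irradiated 1 it was -0.24. Hmgb2, a chromatin protein of proliferating cells, was at 3.12, 3.43 and 3.73 FPKM in the mock brains and 2.92, 2.60 and 5.85 FPKM after irradiation. Irradiated 3 alone lay above mock.

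Set against each other, S-phase and mitotic genes spanned overlapping ranges of change. The median log2 change was -0.086 over the 13 tested S-phase genes (range -0.52 to 0.65, 0 called) and 0.030 over the 13 tested mitotic genes (range -1.17 to 0.63, 1 called lower), beside -0.018 over all tested genes. By library, the S-phase median minus the mitotic median was -0.050, 0.19 and -0.015 in mock 1 to 3 and -0.075, -0.025 and -0.094 in irradiated 1 to 3 on the centred log2 scale. The groups overlapped, and mock 2 was the one library with a positive difference. The summed level of the 26 mitotic genes was 17.5, 19.4 and 22.7 FPKM in the mock brains and 19.1, 15.4 and 17.8 FPKM after irradiation. Without Spag5 it was 11.9, 11.9 and 15.2 FPKM in the mock brains and 16.0, 12.6 and 15.4 FPKM after irradiation. The summed level of the 15 S-phase genes was 76.4, 88.1 and 91.6 FPKM in the mock brains and 83.8, 74.1 and 84.2 FPKM after irradiation, of which Pcna made up more than all the others. No test was made of these sums and medians, since the genes were chosen with results of these data known.

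**Figure D4:**
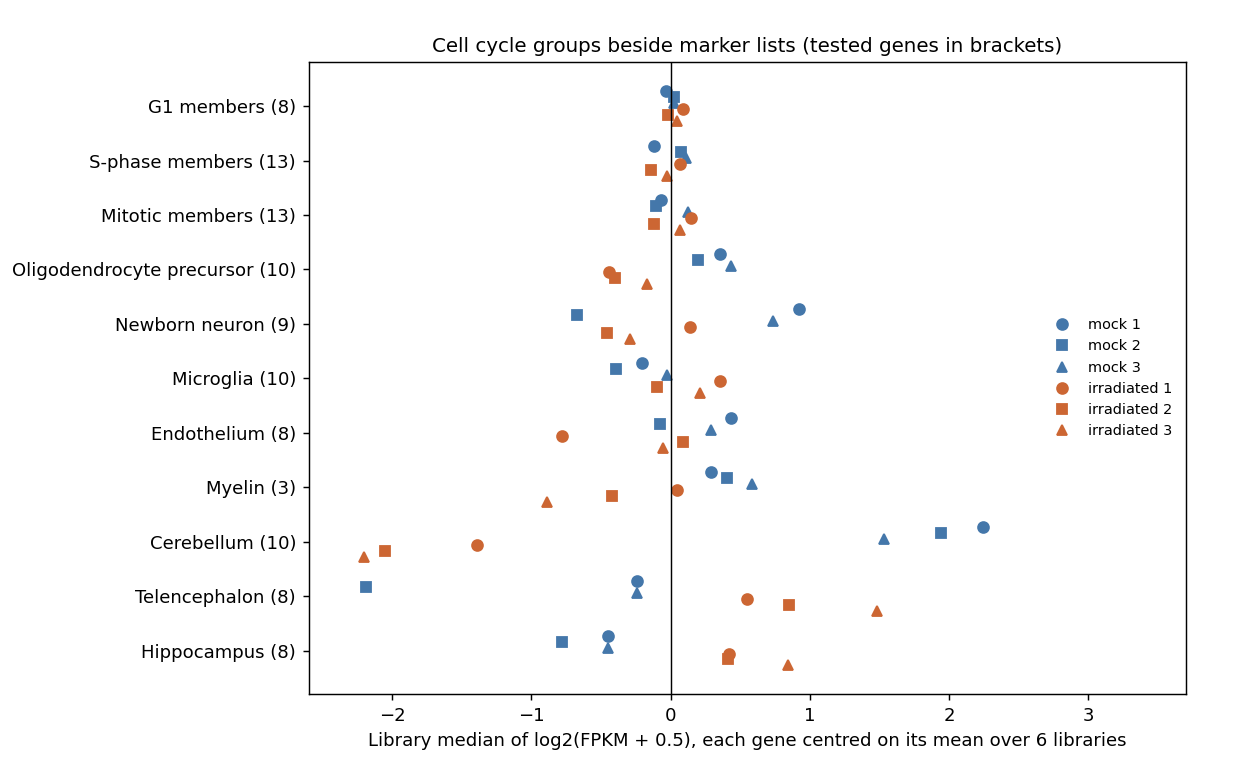
Library medians, on the log2(FPKM + 0.5) scale with each gene centred on its mean over 6 libraries, for the cell cycle groups and for marker lists of cell types and regions. The cell cycle groups stay within -0.14 to 0.14 in every library, while the cerebellum markers run from -2.21 to 2.24.

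Other genes of the same processes are read against the 7.72% called, the 48.2% with a positive log2 change and the median of -0.018 over all tested genes. Of 44 further replication genes 36 were tested, and 1 rose and 0 fell. Fitted log2 changes were positive for 9 and negative for 27, with a median of -0.094. The gene that rose was Dtl, which targets proteins on replicating DNA for destruction, at 0.48, 0.082 and 0.29 FPKM in the mock brains and 0.84, 0.95 and 1.43 FPKM after irradiation (log2 change 1.02, SE 0.25, limma adjusted p = 0.044). Of 53 further mitosis genes 24 were tested, and 0 rose and 1 fell, with 7 positive and 17 negative log2 changes and a median of -0.14. The gene that fell was Anln, anillin of the cytokinetic ring, which is also abundant in myelinating oligodendrocytes. It was at 15.9, 22.5 and 18.8 FPKM in the mock brains and 10.5, 12.2 and 7.39 FPKM after irradiation (-0.91, SE 0.22, adjusted p = 0.042). The oligodendrocyte marker Mbp, myelin basic protein, was at 3486, 3384 and 4278 FPKM in the mock brains and 2948, 2109 and 1711 FPKM after irradiation, with no overlap, and the part of these cells in the Anln difference was not tested. Neither call was firm. Dtl passed in 5 of 14 alternatives (limma adjusted p from 0.021 to 0.16) and Anln in 7 of 15 (0.037 to 0.14), and without irradiated 3 their adjusted p was 0.16 and 0.14.

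The remaining lists held no call. None of 15 tested genes of the anaphase-promoting complex passed, with 8 positive and 7 negative log2 changes and a median of 0.082. The 1 with an unadjusted p under 0.05, beside 25.6% of all tested genes, was Fzr1 (Cdh1), the other activator of the complex. It was at 38.7, 34.8 and 45.5 FPKM in the mock brains and 60.1, 52.6 and 62.5 FPKM after irradiation, with no overlap (0.56, SE 0.16, limma adjusted p = 0.077). None of 14 tested E2F, RB and DREAM complex genes passed, with 4 positive and 10 negative log2 changes and a median of -0.21. At the unadjusted level 1 was higher and 3 were lower. In 6 of the 14 every irradiated library lay below mock and in 0 above, against 17.7% below and 13.7% above among all tested genes. The share below thus exceeded the background, and the gap was not tested. In the second list Rb1, the retinoblastoma protein that holds E2F in check, had lower values after irradiation (log2 change -0.60, SE 0.16, limma adjusted p = 0.058). Stil, a centriole gene of the mitosis list with a mean under the filter, was at 0.46, 0.47 and 0.34 FPKM in the mock brains and 0.14, 0.11 and 0.14 FPKM after irradiation. It was called lower without a filter (-0.55, adjusted p = 0.021), and was chosen after its value was seen.

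Markers of the cells that divide in adult brain moved in several directions in the same libraries. Of 10 oligodendrocyte precursor markers 3 fell and 0 rose, with summed levels of 219 to 291 FPKM in the mock brains and 165 to 191 FPKM after irradiation. Of 9 tested newborn neuron markers 1 fell and 0 rose (99.7 to 181 FPKM in mock, 125 to 159 FPKM in irradiated libraries), and Dlx2 was listed at 0 in mock 2. Of 10 microglia markers 1 rose and 0 fell (153 to 179 FPKM and 169 to 279 FPKM), and of 8 endothelial markers none passed (64.9 to 99.4 FPKM and 55.4 to 70.6 FPKM). At an unadjusted p under 0.05, 5 microglia markers were higher and 0 lower, and 0 endothelial markers were higher and 2 lower. For precursor markers 1 was higher and 5 were lower, and for newborn neuron markers 1 was higher and 3 were lower. Among all tested genes 25.6% reached that level. Among 10 T cell markers, Zap70 and Lck rose, while the defining genes Cd3e, Cd3d and Cd3g were at or below 0.25 FPKM, each listed at 0 in at least 1 library. The part of these cell types in the members' values was not tested.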

How the data were processed

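RNA was measured in 6 brain libraries, 3 mock and 3 irradiated. Ribosomal RNA was depleted and stranded libraries were read from 1 end over 75 nucleotides, to a depth of about 30 to 40 M reads, per the labels' protocols. The authors deposited FPKM, 1 column per library. Per the submitters' processing notes, TopHat, Cufflinks, Cuffdiff and the mm10 assembly were used; the sources used here give no version, setting or annotation. In the low values no ratio to mock 1 was shared by more than 2.2% of genes, so whole reads could not be recovered and the depth behind each value is unknown.

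After 1 line without values was removed, 23057 genes remained. The 14585 genes whose mean reached 0.5 FPKM were tested by limma 3.58.1 (R 4.3.3). Its model of log2(FPKM + 0.5) held the group alone, used a trended empirical Bayes step, and gave p-values that were two-sided and adjusted by Benjamini-Hochberg over these genes. Genes below that mean were fitted without a filter, over 19679 genes with a value above 0. Tables and plots were made in Python 3.11.15. The labels do not say that mice of a group were housed or handled separately, so p-values measure the spread between these libraries. Members, lists and tests were chosen with earlier results of these data known. Described with all values were members called, with an unadjusted p under 0.05, the D-type cyclins and the highest member of each role. Others were described as well, chosen after their values were seen. Of the further lists, called genes were named. On simulated data (14585 genes, 200 changed), 42% of changes of 1 on the log2 scale and 90% of changes of 2 were called. Of those calls, 7.04% were unchanged genes. Noise there was drawn for each gene independently, and fewer genes were changed than the 1126 called in the real libraries. These shares may therefore differ in the real libraries. Alternatives were quantile normalization, centring on library medians, pseudocounts of 0.1 and 1, no filter or one of 1 FPKM, a robust empirical Bayes step, a block for the replicate number, and fits without 1 or 2 libraries. Overlapping exons came from GENCODE M21 and coordinates and promoters from RefSeq, both on GRCm38, the assembly that mm10 represents.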

Additional observations from a re-analysis of the deposited data

How the results depend on the processing

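Spag5 was the 1 member called lower in the main fit and in each of the 15 alternatives. Members called higher numbered 0 except with median centring (1, Ccnd1) and quantile normalization (2, Ccnd2 and Cdca8). Leaving out 1 library at a time kept 0 higher and 1 lower member, while the counts over all genes went from 147 to 673 higher and from 254 to 695 lower. They were 187 higher and 254 lower without mock 1, 205 and 298 without mock 2, 309 and 342 without mock 3, and 147 and 260 without irradiated 3. With the replicate number as a block, 401 genes were higher and 394 lower, and Spag5 kept an adjusted p of 0.035 (limma). Equal numbers did not pair the libraries, since their deviations correlated at -0.33, 0.19 and 0.20, and no irradiated library correlated best with the mock library of its number.

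With mock 2 and irradiated 1 left out together, the median of the mitotic genes was -0.12 in place of 0.030, and that of the S-phase genes -0.068. Leaving out 1 library moved the mitotic median between -0.097 and 0.11 and the S-phase median between -0.16 and -0.037. Among 36 members, 9 uncalled ones with log2 changes near 0 changed sign in at least 1 setting. With 1 library left out Cdk4 ranged from -0.11 to 0.31, Cdc45 from -0.13 to 0.021, Mcm2 from -0.39 to 0.0097, Mcm3 from -0.026 to 0.31, Ccnb2 from -0.065 to 0.19, Ube2c from -0.17 to 0.11, Aurka from -0.26 to 0.093, Kif22 from -0.079 to 0.43 and Hmgb2 from -0.27 to 0.25. With quantile normalization Cdk4 was at -0.0035, Cdc45 at 0.079, Ube2c at 0.080 and Aurka at 0.0014. With median centring Cdc45 was at 0.0044 and Ube2c at 0.0046. Without mock 2 and irradiated 1 Cdk4 was at -0.063, Cdc45 at 0.029, Ccnb2 at -0.079 and Kif22 at -0.17. The call of Dtl was lost without irradiated 2 or 3 or any single mock library, with the lower pseudocount, with the block and without a filter. That of Anln was lost without irradiated 3 or any single mock library, with median centring, with the block and without a filter, and both were lost without mock 2 and irradiated 1. The cause was not tested. With values under 0.5 FPKM, unknown depth limits what can be said of the mitotic genes.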
